A study of Mus musculus with 20 samples.

Results

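The cytoplasmic ribosomal protein genes were followed across 3 ages and 2 Tex15 genotypes of mouse male germ cells. The members are the gene symbols made of Rpl or Rps and a number, with the P-stalk names Rplp0, Rplp1 and Rplp2 and a few letter endings. Symbols of the S6 kinases (Rps6k) and pseudogene names ending in -ps were left out. This gave 85 of the 24983 gene symbols found in the tables: 50 proteins of the large subunit, 32 of the small subunit and 3 of the P-stalk. All 85 stood in the tables of embryonic day 16.5 (e16.5) and embryonic day 18.5 (e18.5), and 84 in the table of postnatal day 2 (d2), which holds no Rpl32l. After a filter on low counts 79 members were tested in every fit and 3 in none.

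With ribosomal RNA these proteins form the ribosome, whose small subunit reads the mRNA and whose large subunit joins amino acids. Their mRNAs in mammals mostly start with a run of pyrimidines, the terminal oligopyrimidine tract, through which the mTORC1 kinase pathway controls their translation. Several of the X-linked genes have autosomal paralogs, and Rpl10l and Rpl39l are known in mouse for their expression in the testis.

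The libraries come from flow-sorted, GFP-positive male germ cells of mice on a mixed strain background, made from total RNA that was amplified. The labels give the genotypes as ko and ht for Tex15, read here as knockout and heterozygous, and name no further allele and no driver of the GFP. The groups are ko at e16.5 (3 libraries), ht at e16.5 (3), ko at e18.5 (3), ht at e18.5 (3), ko at d2 (4) and ht at d2 (4), 20 in all. The labels do not say whether the libraries of a group come from separate animals, so each p-value below reflects only how far these samples scatter, which may be technical. In sorted bulk samples, fewer cells of a type and less RNA per cell cannot be told apart.

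Each library held 7.78 M to 14.2 M counts in genes, of 14.3 M to 31.5 M counts in all, with M for 1000000. Values are CPM, the counts of a gene per 1000000 counts in genes, with library sizes corrected by the trimmed mean of M values (TMM). Tex15 itself stood at 1.7 to 5.34 CPM in the ko libraries of e16.5 and e18.5, against 1270 to 2100 CPM in the ht libraries of these ages. At d2 it stood at 2.04, 102, 2.47 and 2.61 CPM in ko cells, against 884, 837, 1010 and 612 CPM in ht cells. The library labelled ko replicate 2 of d2 thus held Tex15 at 12.1% of the ht mean. Also given without it are the counts of called members for the age comparisons with d2 in ko cells. For ko against ht at d2, so are the call of Rpl3 and the members' median. The same holds for the changes of Rpl3l, Rpl6, Rpl4, Rpl41 and Rpl30 at d2 over e18.5. Apart from fits that left out single libraries, the other d2 values in ko cells include it. The summed level of 12 germ cell markers was 3880 to 8340 CPM over the libraries. Markers of other cells were also present, with sums of 245 to 517 CPM for stroma (13 genes), 78.3 to 165 CPM for endothelial cells (7), 51.8 to 132 CPM for Sertoli cells (12), 29.3 to 123 CPM for Leydig cells (8), 29.8 to 110 CPM for macrophages and white blood cells (8) and 3.28 to 21.3 CPM for red blood cells (8). Insl3 of Leydig cells and the hemoglobin genes were at 0 in every group, while Star and Hsd17b3 of Leydig cells had group means of 6.33 to 15.1 CPM and 6.83 to 15.7 CPM, and Alas2 of red blood cells had 6.2 to 13.5 CPM. Each age was deposited as a table of its own, so age and any difference in how the tables or libraries of an age were made cannot be told apart.

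Levels differed widely between members. Their mean over all libraries was under 1 CPM for 5, from 1 to 10 CPM for 26, from 10 to 100 CPM for 45 and 100 CPM or more for 9 members, with a median of 19 CPM. Per kilobase of coding sequence the median member had 41.4 CPM, against 12.1 CPM per kilobase for the 15220 genes over 1 CPM. That median lay above 77% of these genes, and 26 of the 83 members with a length in the common table were among the top 10%.

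Rpl4, a protein that lines the exit tunnel of the large subunit, had the highest level per length, 1690 CPM per kilobase. It was followed by Rpl41, the shortest of the proteins, with 810 CPM per kilobase, Rpl39l with 414, and Rps15a and Rpl32 with 359 each. The lowest were Rpl26 with 0.0677, Rps27 with 0.44, Rpl34 with 0.946, Rpl30 with 2.23 and Rpl3l with 3.15 CPM per kilobase. Rpl3l is a paralog of Rpl3 known from striated muscle, and the others are ribosomal proteins of most tissues.

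The level of a member went with how much of its coding sequence is found in no other transcript. Of the 50-base stretches of each coding sequence, 30 members had none that was absent from all other genes of GENCODE M21, and these had a median of 6.02 CPM, with a range of 0.111 to 60.8 CPM. A further 38 members had some such stretches and a median of 31.8 CPM. In the other 17 members at least 50% of the stretches were unique, and these had a median of 63.3 CPM, with a range of 3.85 to 2120 CPM. Spearman's rho between the unique share and the mean level was 0.55 over the 85 members, a description of genes that share libraries and, in part, sequence. Stretches were shared with at least 1 pseudogene in 82 members, with 8 pseudogenes at the median and 121 for Rpl7a. How reads that fit several places were counted is not given in the sources used here, so the level of a member with few unique stretches, such as the low one of Rps27 or the high one of Rpl41, both with none, is uncertain, and reads of a member and its copies cannot be told apart.

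**Figure D1:**
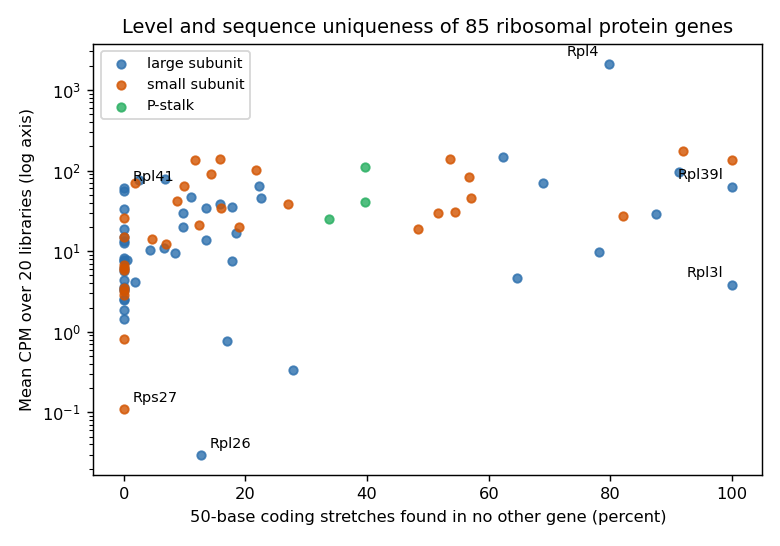
Mean level of the 85 ribosomal protein genes over the 20 libraries (CPM, log axis) against the percent of their 50-base coding stretches found in no other gene. Points are genes, coloured by subunit. Members with none span 0.111 to 60.8 CPM and members with at least 50% span 3.85 to 2120 CPM.

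The spread within groups also differed between members. Over the 80 members above 1 CPM the coefficient of variation within a group was 20.6% at the median, and it was under 20% for 39 of them. Rpl4 stood at 7.71%. Rpl3, a protein next to the peptidyl transferase centre, had the highest at 68.1%, and in 1 group its highest library held 24.9 times the lowest. Rpl15 reached 54.2% and Rps18 reached 48.7%.

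The bases around the transcription start were read for the 64 members with an entry in RefSeq's promoter table (mouse build GRCm38.p6), because the pyrimidine tract lies there. The motif CTTTCC within 30 bases of the start, on the transcript strand, was found in 12 of the 64 (18.8%), against 571 of 17510 other genes (3.26%). On the opposite strand it was found in 2 members (3.12%) and 521 other genes (2.98%). A run of at least 8 pyrimidines in the same window, which can overlap CTTTCC, was held by 36 members (56.2%) and 4444 other genes (25.4%). The ETS-like motif CCGGAAGT in the 300 bases around the start, on either strand, was found in 11 members (17.2%) and 986 other genes (5.63%). The YY1-like motif AAGATGGC was found in 6 members (9.38%) and 632 other genes (3.61%). Matches are descriptions of these letters, not of binding. The 30 bases centred on the start are shown 5′ to 3′ on the transcript strand for members that the results turn on, with CTTTCC in capitals.
Rpl13a: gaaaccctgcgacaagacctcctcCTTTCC
Rpl15: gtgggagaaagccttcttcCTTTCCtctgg
Rpl39l: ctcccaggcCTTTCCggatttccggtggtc
Rps27: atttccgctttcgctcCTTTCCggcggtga
Rpl4: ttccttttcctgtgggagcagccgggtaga
Rpl39: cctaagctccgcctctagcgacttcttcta
Rpl41: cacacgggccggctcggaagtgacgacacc
These windows lie at chr7:45128731-45128760 (minus strand) for Rpl13a, chr14:18270972-18271001 (minus) for Rpl15, chr16:10170213-10170242 (plus) for Rpl39l and chr3:90213634-90213663 (minus) for Rps27. Those of Rpl4 at chr9:64173372-64173401 (plus), Rpl39 at chrX:37085208-37085237 (minus) and Rpl41 at chr10:128549154-128549183 (minus) hold no CTTTCC.

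Together the members took 0.372% to 0.652% of the gene counts of a library, and Rpl4 alone made up 23% to 58.4% of that sum. At e16.5 the share was 0.587%, 0.578% and 0.652% in ko cells, against 0.56%, 0.54% and 0.535% in ht cells, with no overlap. At e18.5 it was 0.465%, 0.48% and 0.518% in ko cells, against 0.472%, 0.539% and 0.465% in ht cells. At d2 it was 0.486%, 0.452%, 0.372% and 0.392% in ko cells, against 0.482%, 0.546%, 0.396% and 0.442% in ht cells. At d2, as at e18.5, ko and ht cells overlapped. Without Rpl4 the order of the ages changed. The mean share of the other members in ko cells was then 0.352% ± 0.0371 on e16.5 (SD, n = 3), 0.223% ± 0.0135 on e18.5 (n = 3) and 0.304% ± 0.0521 on d2 (n = 4). In ht cells it was 0.297% ± 0.0208, 0.222% ± 0.025 and 0.325% ± 0.0709 at these ages. In both genotypes the mean was lowest at e18.5. These shares are a description with no test.

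**Figure D2:**
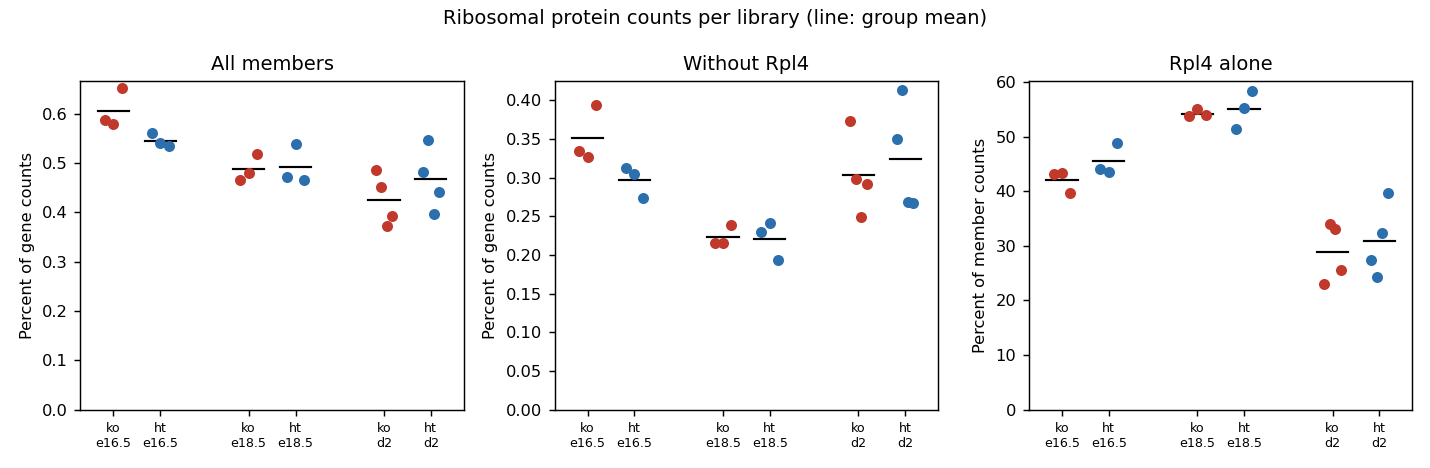
Ribosomal protein counts per library as percent of gene counts, for all members (left) and without Rpl4 (middle), and Rpl4 as percent of the members' counts (right). Points are libraries, ko in red and ht in blue, and lines are group means. Without Rpl4 the means at e18.5, 0.223% in ko and 0.222% in ht cells, lie below those of e16.5 and d2.

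Between e18.5 and e16.5 the members that passed the test were lower at the later age, while Rpl4, the most abundant one, did not pass. In ko cells none of 81 tested members was higher and 49 were lower at e18.5 (edgeR's quasi-likelihood test, Benjamini-Hochberg adjusted p under 0.05), where 17.5% of all 18619 genes tested were called higher and 17.7% lower. In ht cells none was higher and 25 were lower, where 7.63% of all genes were called higher and 10.2% lower. DESeq2 called 1 higher and 48 lower in ko cells, and none higher and 25 lower in ht cells. The median log2 change of the members was −0.79 in ko cells, against 0.09 for all genes, and −0.59 in ht cells, against 0.04 for all genes. With the members' own total as library size 1 was higher and 16 were lower in ko cells and 9 were lower in ht cells. That scaling moved the median of all genes to 0.63 in ko and 0.32 in ht cells, and the members' medians stayed below 0, at −0.26 in ko and −0.30 in ht cells. The share of all genes called with that scaling is not given here, so these counts cannot be set beside it.

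Large and small subunit genes both had medians below 0. In ko cells the medians were −0.74 for large and −0.96 for small subunit genes on the log2 scale, and in ht cells −0.59 and −0.57. Members without unique stretches had a median of −0.71 in ko and −0.57 in ht cells, and those with at least 50% unique stretches had −0.78 in ko and −0.46 in ht cells. Members with some unique stretches had the lowest medians, −0.92 in ko and −0.66 in ht cells. In ko cells leaving out 1 ko library of these ages gave 35 to 45 called members, in place of 49. The count in ht cells rested on single libraries. It was 31 without ht replicate 3 of e16.5, 11 without ht replicate 1 of e16.5, 12 without ht replicate 2 of e16.5, and 15, 13 and 13 without ht replicates 1, 2 and 3 of e18.5, with no member called higher in these fits. Beside these falls, the 12 germ cell markers summed to 4860 to 5960 CPM at e18.5 against 7480 to 8340 CPM at e16.5 in ko cells, and to 5220 to 6290 CPM against 6090 to 7890 CPM in ht cells. Of these, Dazl alone had a higher group mean at e18.5 (1140 against 893 CPM in ko and 1440 against 941 CPM in ht cells). Endothelial markers summed to 139 to 165 CPM at e18.5 against 86.7 to 101 CPM at e16.5 in ko cells, and to 128 to 142 CPM against 83.1 to 119 CPM in ht cells. In ko cells the stroma markers (387 to 407 CPM against 252 to 288 CPM), Sertoli markers (70.2 to 82.7 CPM against 51.8 to 62.8 CPM), Leydig markers (46.9 to 56.3 CPM against 29.3 to 37.1 CPM) and macrophage markers (88.7 to 110 CPM against 33.8 to 51.5 CPM) were also higher at e18.5 with no overlap. In ht cells the sums of these 4 lists overlapped between the ages. Single genes of the 4 lists went the other way in ko cells, by group means. Star fell from 14.2 to 8.52 CPM, Cd68 from 15.9 to 5.9 CPM and Pdgfrb from 22.3 to 8.37 CPM. Sox9 (10 to 8.09 CPM), Clu (20.4 to 16 CPM), Cyp17a1 and Csf1r fell as well. The largest gains in the Leydig and macrophage lists were those of Lhcgr (1.4 to 12.8 CPM) and Mrc1 (18.5 to 72.9 CPM). The part of these markers in the falls was not tested.

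Among the called members, Rpl41 had the largest fall in ht cells. Rpl41 had 70, 78.9 and 90.4 CPM in ko cells and 81.8, 61.9 and 40.3 CPM in ht cells at e16.5. At e18.5 it had 17.8, 21.3 and 19.3 CPM in ko cells and 19.2, 16.2 and 13 CPM in ht cells. At d2 it had 127, 83.2, 67.8 and 94.2 CPM in ko cells and 88.2, 111, 68 and 46.4 CPM in ht cells. Every e18.5 library was below every library of the other ages. Its log2 change at e18.5 over e16.5 was −2.04 in ko cells (SE 0.28, edgeR adjusted p = 7.3e-06) and −1.92 in ht cells (SE 0.28, edgeR adjusted p = 4.35e-05). At d2 over e18.5 its log2 change was 2.26 in ko cells (edgeR adjusted p = 1.83e-07) and 2.28 in ht cells (edgeR adjusted p = 2.31e-07). Against e16.5, d2 did not pass the test, with 0.22 in ko and 0.35 in ht cells.

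The other large falls in ht cells were those of Rps4l (−1.69), Rpl36 (−1.45), Rpl39 (−1.38), Rpl10l (−1.26) and Rpl7a (−1.16), all log2 changes at e18.5 over e16.5. Rpl36 lost its call without any 1 of 4 ht libraries and Rpl7a without any 1 of 3, and both lost it with the members' own total as library size. Rpl39 lost it without ht replicate 1 of e16.5 (edgeR adjusted p = 0.0569) and Rpl10l without ht replicate 2 of e16.5 (edgeR adjusted p = 0.0501). In ko cells Rpl30 fell by 2.44 on the log2 scale, at a level of 0.0872 to 0.324 CPM at e18.5 against 0.611 to 1.3 CPM at e16.5, and this call was lost without any 1 of 4 ko libraries and with the members' own total as library size.

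Between d2 and e18.5 most called members were higher at d2. In ko cells 42 of 81 were higher and 7 lower, where 25.3% of all genes were called higher and 29.7% lower. Without the ko library of d2 that held Tex15, 42 were higher and 6 lower. In ht cells 39 were higher and 6 lower, where 24.1% of all genes were called higher and 27% lower. Leaving out 1 library gave 36 to 48 called members in ko cells, in place of 49, and 32 to 48 in ht cells, in place of 45. The median log2 change of the members was 0.83 in ko cells, against −0.11 for all genes, and 0.63 in ht cells, against −0.08 for all genes. Members with no unique stretch had medians of 1.06 in ko and 1.09 in ht cells, members with some had 0.53 and 0.51, and members with at least 50% unique stretches had 1.12 and 1.00. Beside these rises, germ cell markers summed to 4230 to 5540 CPM at d2 against 4860 to 5960 CPM at e18.5 in ko cells, and to 3880 to 4320 CPM against 5220 to 6290 CPM in ht cells. Single germ cell markers went both ways in group means. In ko cells Tdrd1 (1490 to 720 CPM), Mael (1310 to 580 CPM) and Piwil2 (796 to 474 CPM) fell. Dazl (1140 to 2420 CPM), Ddx4 (381 to 520 CPM) and Sycp3 (63.6 to 217 CPM) rose. Each of these genes moved the same way in ht cells, with Dazl going from 1440 to 1580 CPM. Sertoli markers summed to 92.2 to 132 CPM at d2 against 70.2 to 82.7 CPM at e18.5 in ko cells, and to 106 to 126 CPM against 72.2 to 85.4 CPM in ht cells. In ko cells endothelial (78.3 to 131 against 139 to 165 CPM) and Leydig markers (33.1 to 44.7 against 46.9 to 56.3 CPM) were lower. Macrophage markers fell in ko (43.7 to 66.8 against 88.7 to 110 CPM) but rose in ht (49.8 to 65.7 against 29.8 to 42.8 CPM). In ht cells stroma markers were lower at d2 (245 to 328 against 342 to 416 CPM). Red blood cell markers were lower at d2 in both genotypes, and the sums not named here overlapped. The part of these markers in the rises was not tested.

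**Figure D3:**
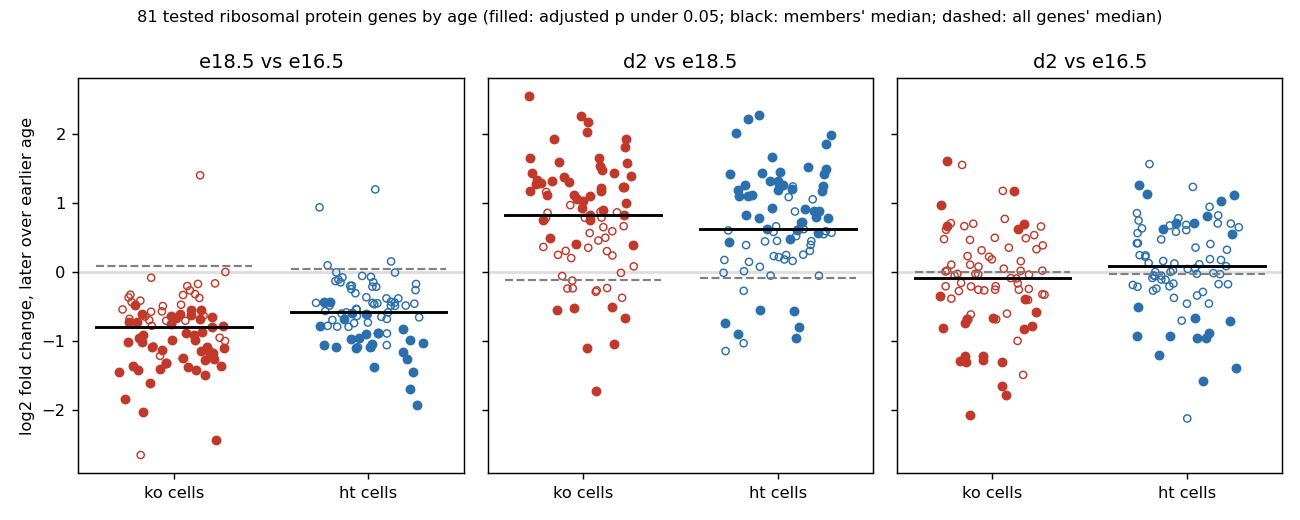
Log2 fold change of the 81 tested ribosomal protein genes, later over earlier age, in ko cells (red) and ht cells (blue). Filled points have an edgeR adjusted p under 0.05, black lines are the members' medians and dashed lines the medians of all genes. The members' medians are −0.79 and −0.59 at e18.5 over e16.5, and 0.83 and 0.63 at d2 over e18.5, in ko and ht cells.

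Among the members with the largest rises in ht cells was Rpl23a, a large subunit protein. It had 0 unique 50-base stretches and shared stretches with 29 other genes, 28 of them pseudogenes, so its level is uncertain. Rpl23a had 5.8, 6.35, 4.43 and 6.22 CPM in ko cells and 5.17, 4.98, 5.3 and 7.55 CPM in ht cells at d2. At e18.5 it had 1.7, 2.68 and 1.92 CPM in ko cells and 1.3, 1.49 and 1.51 CPM in ht cells. Every d2 library lay above every e18.5 library. The log2 rise was 1.44 in ko cells (SE 0.41, edgeR adjusted p = 0.00397) and 1.99 in ht cells (SE 0.42, edgeR adjusted p = 0.000293). Rps29 rose by 2.02 in ht cells, but stayed between 0.676 and 2.53 CPM at d2, against 0.342 to 0.393 CPM at e18.5, and lost its call without any 1 of 5 ht libraries. In ko cells Rpl30 rose by 2.55 and Rps29 by 2.18, both at low levels; Rpl30 lost its call without ko replicate 2 or 3 of e18.5, and Rps29 without ko replicate 1 or 2 of e18.5 or ko replicate 4 of d2.

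A few members fell between e18.5 and d2, and Rpl4, the most abundant one, was among them. Rpl4 had 2808, 3043 and 2831 CPM in ko cells and 2806, 2483 and 2605 CPM in ht cells at e16.5. At e18.5 it had 2453, 2518 and 2731 CPM in ko cells and 2357, 2834 and 2660 CPM in ht cells. At d2 it had 1138, 1518, 1287 and 1019 CPM in ko cells and 1212, 1306, 1270 and 1610 CPM in ht cells. All d2 libraries lay below all embryonic ones, and e16.5 and e18.5 overlapped. The log2 change at d2 over e18.5 was −1.05 in ko cells (SE 0.12, edgeR adjusted p = 7.35e-08) and −0.96 in ht cells (SE 0.12, edgeR adjusted p = 4.36e-07). At e18.5 over e16.5 it was −0.17 in ko and −0.01 in ht cells and passed in neither.

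Rpl6, a large subunit protein, fell at d2 as well. Rpl6 had 44.7, 46.4, 40.8 and 29.7 CPM in ko cells and 36.1, 52.9, 47 and 43.8 CPM in ht cells at d2, against 85.4, 73.9 and 99.8 CPM in ko cells and 102, 78.6 and 72.3 CPM in ht cells at e18.5. The groups did not overlap, and the log2 changes were −1.10 in ko and −0.91 in ht cells. Rps20 fell by 0.80 and Rpl22l1 by 0.74 on the log2 scale in ht cells. Rpl13a changed by −0.57 and Rps4x by −0.55 there, and both calls were lost without ht replicate 2 of e18.5. In ko cells Rpl3l changed by −1.73, with 0.322, 4.45, 2.73 and 1.68 CPM at d2 against 7.78, 8.24 and 6.54 CPM at e18.5. Without the ko library of d2 that held Tex15 the log2 changes in ko cells were −2.26 for Rpl3l, −1.17 for Rpl6, −1.16 for Rpl4, 2.31 for Rpl41 and 2.57 for Rpl30, each with its call kept.

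Between d2 and e16.5 the changes went both ways. In ko cells 6 members were higher and 19 lower, where 20.8% of all genes were called higher and 21.9% lower. In ht cells 9 were higher and 11 lower, where 20.5% of all genes were called higher and 22.7% lower. The members' medians were −0.09 in ko and 0.09 in ht cells. They differed with sequence uniqueness. Members with no unique stretch had medians of 0.353 in ko and 0.565 in ht cells, and members with some had −0.303 and −0.177. Members with at least 50% unique stretches had −0.205 in ko and 0.282 in ht cells. The part of read assignment in this was not tested. With the members' own total as library size 37 were higher and 8 lower in ko cells and 26 higher and 6 lower in ht cells, with members' medians of 0.58 and 0.46. That scaling moved the median of all genes to 0.68 in ko and 0.36 in ht cells. The members' median thus lay below that of all genes in ko cells and above it in ht cells. The share of all genes called with that scaling is not given here, so the counts cannot be read as particular to the members. Rpl4, which fell at d2, made up 39.6% to 48.9% of that total at e16.5 and 23% to 39.7% at d2. Without ko replicate 3 of e16.5 the count in ko cells was 3 higher and 13 lower, and without the ko library of d2 that held Tex15 it was 7 higher and 16 lower. Rps4x, Rpl6, Rpl22l1, Rpl4, Rpl21 and Rps20 had the largest falls in ht cells, from −1.59 for Rps4x to −0.93 for Rps20. Rpl23a (1.26), Rps27l (1.11), Rpl22 (1.03), Rplp0 (0.81) and Rpl39l (0.72) were among the largest rises; the call of Rpl23a was lost without ht replicate 3 of e16.5 and that of Rpl21 (−0.96) without ht replicate 2 of e16.5. In ko cells Rps3a1 changed by −1.78, Rps27l by 1.61, Rpl23a by 1.17 and Rpl12 by 0.97; Rpl23a lost its call without ko replicate 1 or 3 of e16.5, and Rpl12 without either of these or ko replicate 1 or 4 of d2.

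Members with paralogs did not all change with their partner. Rpl22, an RNA-binding protein on the surface of the large subunit, and its paralog Rpl22l1 share 70.2% of their aligned coding bases. Rpl22 had 128, 86.4, 84.9 and 97.5 CPM in ko cells and 116, 143, 91.6 and 59.7 CPM in ht cells at d2, against 35.3, 44.4 and 40.6 CPM in ko cells and 47.5, 54.1 and 41.9 CPM in ht cells at e18.5. Rpl22l1 had 34.7, 24.5, 21.4 and 19.8 CPM in ko cells and 27.5, 23.4, 23.4 and 20.2 CPM in ht cells at d2, against 38.8, 31 and 37.6 CPM in ko cells and 29.4, 41 and 47.9 CPM in ht cells at e18.5. Rpl22 was higher in every d2 library than in any e18.5 library, whereas Rpl22l1 was lower in d2 ht cells than in any e18.5 ht library and overlapped between the ages in ko cells. The log2 changes of Rpl22 were 1.31 in ko (SE 0.23, edgeR adjusted p = 4.67e-05) and 1.10 in ht cells (SE 0.23, edgeR adjusted p = 0.000329). Those of Rpl22l1 were −0.51 in ko (SE 0.20, edgeR adjusted p = 0.0351) and −0.74 in ht cells (SE 0.20, edgeR adjusted p = 0.00372).

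Rpl39 is a short protein of the exit tunnel, encoded on chromosome X, and Rpl39l is its paralog on chromosome 16. Both coding sequences have 153 bases without the stop codon and differ at 23 of them (85% identity, GENCODE M21). The differing bases are in capitals, 5′ to 3′.
Rpl39l: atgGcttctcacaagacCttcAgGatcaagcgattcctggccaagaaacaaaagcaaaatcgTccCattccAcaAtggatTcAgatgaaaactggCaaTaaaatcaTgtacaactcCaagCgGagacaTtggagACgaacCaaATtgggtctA
Rpl39: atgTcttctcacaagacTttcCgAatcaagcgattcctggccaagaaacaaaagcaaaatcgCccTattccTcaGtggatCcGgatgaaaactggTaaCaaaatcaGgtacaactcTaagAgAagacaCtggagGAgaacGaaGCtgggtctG
All 50-base stretches of Rpl39l were unique to it, against 13.5% of those of Rpl39. Rpl39l was the more abundant of both in every library. At e16.5 Rpl39l had 68.2, 73.1 and 65.4 CPM in ko cells and 59.5, 56 and 38 CPM in ht cells, and at e18.5 it had 30.1, 34.1 and 33.1 CPM in ko cells and 30.9, 37.7 and 43.2 CPM in ht cells. At d2 it had 97.3, 85.6, 88.5 and 88.9 CPM in ko cells and 87, 103, 67.5 and 78.2 CPM in ht cells. Over both genotypes Rpl39 ranged from 7.96 to 20.9 CPM at e16.5. Its range was 5.39 to 7.3 CPM at e18.5, and 8.45 to 25 CPM at d2. For Rpl39l the e18.5 libraries lay below those of d2 in both genotypes, and in ht cells they overlapped with e16.5. The log2 change of Rpl39l at d2 over e18.5 was 1.47 in ko (SE 0.17, edgeR adjusted p = 9.65e-08) and 1.17 in ht cells (SE 0.17, edgeR adjusted p = 3.15e-06), and that of Rpl39 was 1.39 in ko and 1.42 in ht cells. At e18.5 over e16.5 Rpl39l changed by −1.09 in ko cells, while its −0.46 in ht cells did not pass (edgeR adjusted p = 0.0746); the difference between both did not pass either (−0.63, SE 0.25, edgeR adjusted p = 0.651).

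Rpl10, an X-linked protein needed for the joining of the subunits, stood at 1.13 to 5.07 CPM in all libraries and passed the test in no age comparison. Its autosomal paralog Rpl10l had 13.8, 18.9 and 15.4 CPM in ko cells and 7.33, 12.9 and 13.8 CPM in ht cells at e18.5. At d2 Rpl10l had 68.1, 26.4, 35.9 and 38.2 CPM in ko cells and 28.9, 47.9, 40.9 and 25.5 CPM in ht cells. Rpl10l was higher in every d2 library than in any e18.5 library, and its log2 change was 1.40 in ko and 1.67 in ht cells. Of the 50-base stretches of Rpl10 none was unique, against 87.5% of those of Rpl10l, so the low level of Rpl10 is uncertain.

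Rps4x, an X-linked small subunit protein, fell over both steps. Rps4x had 132, 147 and 138 CPM in ko cells and 118, 102 and 81.2 CPM in ht cells at e16.5. At e18.5 it had 50.6, 60.3 and 46 CPM in ko cells and 50, 56.9 and 40.8 CPM in ht cells, and at d2 it had 31, 44.5, 33.6 and 22.9 CPM in ko cells and 35.7, 35.2, 32.8 and 30.3 CPM in ht cells. The e16.5 libraries stood above all others, and e18.5 stood above d2 with no overlap within a genotype. The log2 change at d2 over e16.5 was −2.08 in ko (SE 0.18, edgeR adjusted p = 5.4e-10) and −1.59 in ht cells (SE 0.18, edgeR adjusted p = 6.66e-08). Rps4l, which RefSeq lists as a transcribed pseudogene, changed by −1.84 at e18.5 over e16.5 and by 1.58 at d2 over e18.5 in ko cells, and by −1.69 and 1.85 in ht cells.

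**Figure D4:**
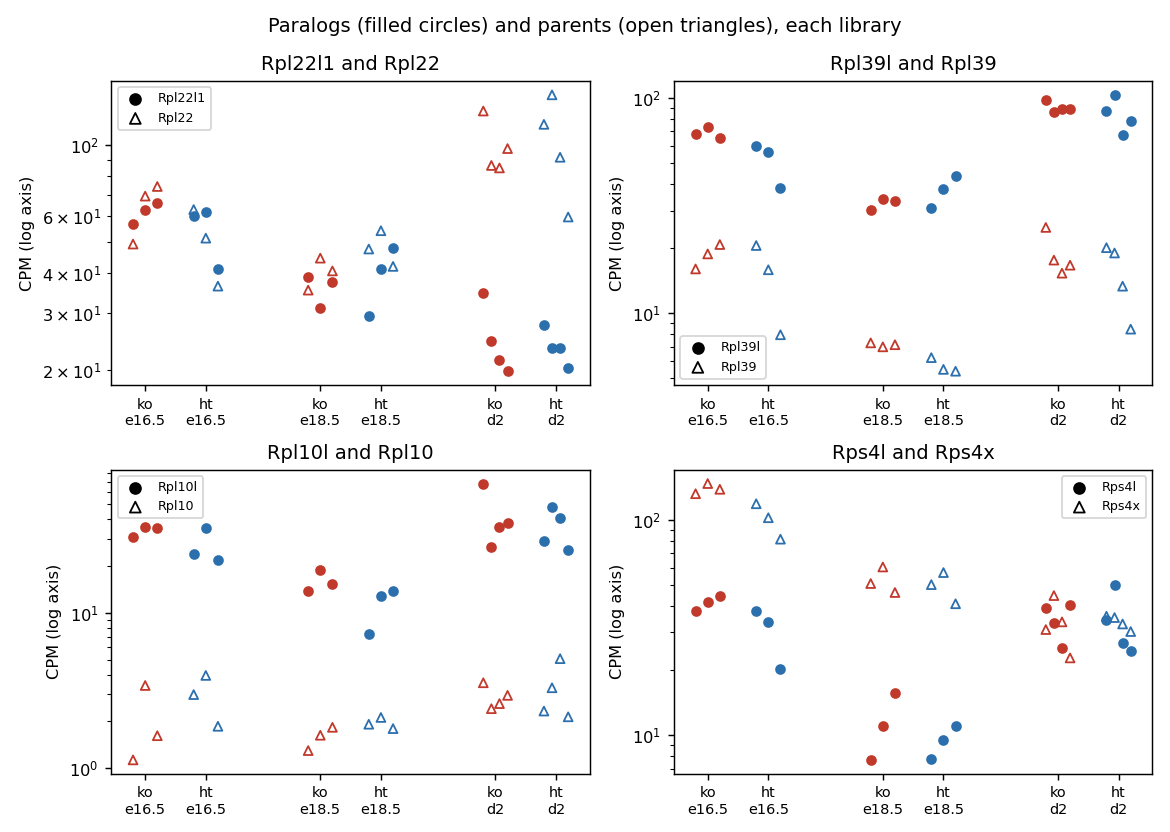
Level of 4 paralogs (filled circles) and their partners (open triangles) in each library (CPM, log axis), ko in red and ht in blue. Rpl22 rises at d2 while Rpl22l1 does not, Rpl39l stays above Rpl39 and Rpl10l above Rpl10, and Rps4x falls over both steps.

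For Rps27l, a paralog of Rps27 known as a p53 target gene, the rise came at d2. Rps27l had 68.9, 47.4, 44.3 and 67.3 CPM in ko cells and 40.9, 51.9, 30.8 and 33.2 CPM in ht cells at d2, against 15.2, 14.7 and 18.8 CPM in ko cells and 16, 13.1 and 17.9 CPM in ht cells at e18.5. No d2 library overlapped with e18.5, and the log2 change was 1.81 in ko and 1.33 in ht cells. Rps27 itself had at most 0.384 CPM in any library, with no unique stretch. Rpl7l1 changed by 1.65 in ko and 1.46 in ht cells at d2 over e18.5, whereas its partner Rpl7 did not pass (−0.37 in ko and 0.31 in ht cells). Rpl36al, with 0 unique stretches, changed by 0.90 in ko and 0.48 in ht cells; the call in ht cells was lost without ht replicate 2 or 3 of e18.5 or ht replicate 2 of d2.

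The P-stalk proteins Rplp0, Rplp1 and Rplp2 form the arm of the large subunit that recruits elongation factors. Rplp0 had 128, 129, 87.9 and 103 CPM in ko cells, against 153, 225, 134 and 124 CPM in ht cells, at d2. At e18.5 it had 93.3, 90.9 and 88.5 CPM in ko cells, against 81.1, 97.1 and 80 CPM in ht cells. In ko cells 1 d2 library lay below all e18.5 libraries, while in ht cells d2 stood above e18.5 with no overlap. The log2 change of Rplp0 at d2 over e18.5 was 0.30 in ko cells, which did not pass (SE 0.17, edgeR adjusted p = 0.136), and 0.89 in ht cells (SE 0.17, edgeR adjusted p = 0.000136). The difference between these 2 changes did not pass the test (−0.58, SE 0.24, edgeR adjusted p = 0.28). Rplp1 rose by 1.33 in ko and 0.92 in ht cells, and Rplp2 by 1.24 in ko and 1.43 in ht cells.

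The question of the study's design, how loss of Tex15 changes the transcriptome at each age, was put to these genes next. At e16.5 no member of 81 passed the test of ko against ht in edgeR, where 0.0061% of all 16384 genes did, and none of 85 passed in DESeq2. At an unadjusted p under 0.05, edgeR found 13 members, all higher in ko cells (16%), where 7.73% of all genes passed at that level and 2.87% were higher. DESeq2 found 13 as well. The log2 change of ko over ht was positive for 76 of the 81, with a median of 0.28, against −0.01 for all genes. Leaving out 1 library gave medians from 0.16 (without ko replicate 3) to 0.36, and the members' own total as library size gave 0.05, with 47 positive, and moved the median of all genes to −0.24. These values are relative to the other genes of each library. Beside them, the ko libraries held 12.8 M to 13.9 M gene counts, against 9.61 M to 11.8 M in ht libraries. Stroma markers summed to 252 to 288 CPM in ko against 303 to 502 CPM in ht cells, 8 Leydig markers to 29.3 to 37.1 CPM against 35 to 123 CPM, 12 Sertoli markers to 51.8 to 62.8 CPM against 73.2 to 81.4 CPM, and germ cell markers to 7480 to 8340 CPM against 6090 to 7890 CPM. Some genes went against the sum of their list in group means. Among them were Dazl (893 in ko against 941 CPM in ht cells), Star (14.2 against 12.9 CPM) and Sox9 (10 against 9.47 CPM). The part of these counts and markers in the shift was not tested.

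Among the members with the smallest p at e16.5 were Rpl13a, Rps18, Rps2 and Rps4x. Rpl13a had 118, 122 and 137 CPM in ko cells, against 99.6, 90.9 and 67 CPM in ht cells. Rps2 had 48, 46.7 and 48.8 CPM in ko cells, against 39.2, 29.3 and 29.3 CPM in ht cells. In both the lowest ko library stood above the highest ht library. The log2 values were 0.53 (SE 0.16) for Rpl13a, 0.53 for Rps18, 0.53 (SE 0.17) for Rps2 and 0.45 for Rps4x, each with an edgeR adjusted p of 0.629. Rps3a1 had 296, 322 and 253 CPM in ko cells, against 271, 122 and 93.7 CPM in ht cells, and passed only in the fit without ht replicate 1.

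**Figure D5:**
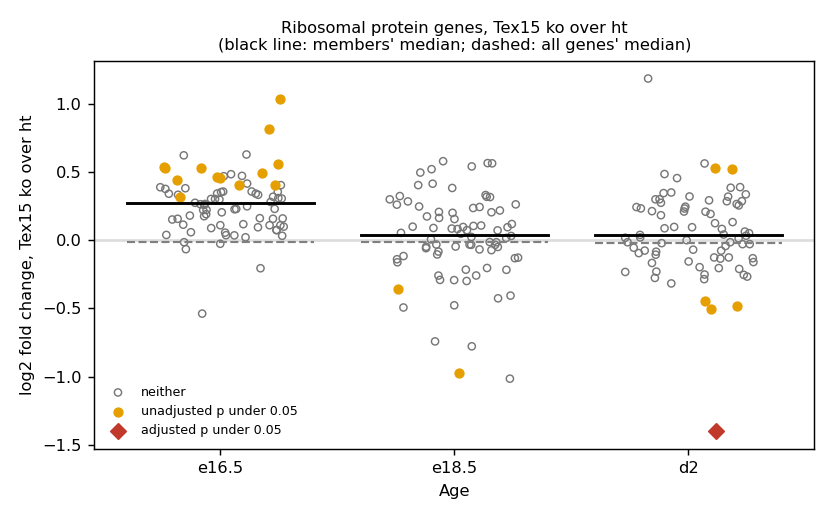
Log2 fold change of ribosomal protein genes, Tex15 ko over ht, at each age. Orange points have an unadjusted p under 0.05, the diamond at d2 (Rpl3) an edgeR adjusted p under 0.05, black lines are the members' medians (0.28, 0.04 and 0.04) and dashed lines the medians of all genes.

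At e18.5 none of 80 members passed in edgeR, where 2.33% of all genes did, and none of 85 passed in DESeq2. At an unadjusted p under 0.05 edgeR found 2, both lower in ko cells, where 11.3% of all genes passed at that level and 4.59% were lower, and DESeq2 found 1. The median log2 change was 0.04, with 44 positive, and −0.01 without ht replicate 3. Rps20 had 73, 87.6 and 89.2 CPM in ko cells, against 102, 106 and 112 CPM in ht cells, which did not overlap, with a log2 value of −0.36 (SE 0.14, edgeR adjusted p = 0.28). Rpl15 had 18.8, 12.8 and 14.8 CPM in ko cells, against 54, 21.8 and 15 CPM in ht cells, with −0.97 (edgeR adjusted p = 0.322), and it passed without ht replicate 3. Rpl12 (−0.78), Rps27a (−0.74) and Rpl10l (0.50) had the next smallest p. Macrophage and white blood cell markers summed to 88.7 to 110 CPM in ko cells, against 29.8 to 42.8 CPM in ht cells. Most of this gap in group means came from Mrc1 (72.9 against 21.8 CPM) and Adgre1 (13.7 against 3.86 CPM). Ptprc was also higher in ko cells (6.26 against 4.19 CPM), and Cd68 (5.9 against 5.43 CPM) and C1qa were close. Csf1r (1.01 against 1.66 CPM), C1qb and Lyz2 (0.119 against 0.51 CPM) were lower in ko cells.

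At d2 the only member of 80 that passed was Rpl3, where 2.8% of all genes passed and 0.776% were lower. Rpl3 had 6.99, 3.18, 3.91 and 11.4 CPM in ko cells, against 16.3, 20.2, 19 and 12.4 CPM in ht cells. The highest ko library lay just below the lowest ht library. The log2 change was −1.40 (SE 0.35, edgeR adjusted p = 0.0358), and DESeq2 called Rpl3 as well. The call held in 2 of 8 fits that left out 1 library, with adjusted p up to 0.118. It was lost without the ko library that held Tex15, without ko replicate 1 or 3, and without ht replicate 1, 2 or 3. It was also lost with the members' own total as library size and with all ages in 1 fit. Rpl3 was the member with the widest spread within groups, with 1.39, 2.71 and 34.6 CPM in ko cells at e16.5. Without ht replicate 1, Rps28 and Rps18 passed instead. The median log2 change of the members at d2 was 0.04, with 45 positive, and 0.07 without the ko library that held Tex15.

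Whether the effect of the genotype differed between ages was tested as an interaction in 1 fit of all libraries. No member of 81 passed in edgeR, and none of 84 in DESeq2, for e18.5 minus e16.5, for d2 minus e18.5 or for d2 minus e16.5, where edgeR called 0.0967%, 0.526% and 0.8% of all genes. At an unadjusted p under 0.05 edgeR found 2, 5 and 6 members in these tests, where 6.39%, 13.5% and 11.6% of all genes passed, and DESeq2 found 3, 5 and 4. The smallest p was that of Rplp0 for d2 minus e16.5 (−0.83 on the log2 scale, SE 0.24, edgeR adjusted p = 0.119), which passed without ht replicate 4 of d2, and that of Rps3a1 passed in the same test without ht replicate 1 of e16.5. Rpl7 had −0.68 for d2 minus e18.5 and −0.77 for d2 minus e16.5, and Rpl13a −0.61 for e18.5 minus e16.5.

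Other genes of ribosome production and translation were read for comparison, beside the shares of all genes called. At e18.5 over e16.5 these were 17.5% higher and 17.7% lower in ko cells and 7.63% higher and 10.2% lower in ht cells. For d2 over e18.5 they were 25.3% higher and 29.7% lower in ko cells and 24.1% higher and 27% lower in ht cells. Of 45 tested genes of ribosome biogenesis and RNA polymerase I, 1 was higher and 32 were lower at e18.5 over e16.5 in ko cells, with a median log2 change of −0.66, and 1 was higher and 15 were lower in ht cells, with −0.41. Cirh1a (−0.88) and Polr1b (−0.97), a subunit of RNA polymerase I, were among the lower ones in ht cells. Then 26 were higher and 5 lower at d2 over e18.5 in ko cells (median 0.56) and 25 higher and 5 lower in ht cells (median 0.68), with Eif6 (1.78) higher and Heatr1 (−1.03) lower in ht cells.

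Of 19 further mRNAs with pyrimidine tracts, 12 were lower and none higher at e18.5 over e16.5 in ko cells, and 6 were lower and none higher in ht cells. Eef1a1, the elongation factor that brings tRNAs, changed by −0.90 in ko and −0.75 in ht cells. At d2 over e18.5, 5 of these mRNAs were higher and 5 lower in ko cells and 5 higher and 6 lower in ht cells, shares near those of all genes, with Pabpc1 (−1.12), Eef2 (−1.02) and Hnrnpa1 (1.54) in ht cells. Npm1, a nucleolar protein, was the 1 of the 19 that passed for ko against ht at e18.5, where 2.33% of all genes passed, and was lower in ko cells (−0.44, edgeR adjusted p = 0.0436).

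Among 22 regulators of the mTORC1 and MYC pathways 2 were higher and 9 lower at e18.5 over e16.5 in ko cells, and 1 was higher and 4 were lower in ht cells. At d2 over e18.5, 12 were higher and 3 lower in ko cells, and 13 higher and 3 lower in ht cells, among them Mtor (−1.39), Tsc1 (−1.24) and Eif4g1 (1.22) in ht cells. Of 28 translation factors 1 was higher and 11 were lower at e18.5 over e16.5 in ko cells and 1 was higher and 8 were lower in ht cells. Of these factors 16 were higher and 2 lower at d2 over e18.5 in ko cells, and 17 higher and 2 lower in ht cells, with Etf1, the release factor, at 1.78 in ht cells. For ko against ht at d2, 2 of the 28 passed, where 2.8% of all genes did, and both were higher in ko cells: Eif1a (0.61, edgeR adjusted p = 0.0161) and Eif2s2 (0.49, edgeR adjusted p = 0.0324).

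Of 77 mitochondrial ribosomal proteins 1 was higher and 25 were lower at e18.5 over e16.5 in ko cells (median −0.44), and none was higher and 13 were lower in ht cells (median −0.34). At d2 over e18.5, 45 were higher and 7 lower in ko cells (median 0.76), and 41 higher and 5 lower in ht cells (median 0.72). Of 46 nuclear subunits of oxidative phosphorylation 1 was higher and 11 were lower at e18.5 over e16.5 in ko cells, and none was higher and 1 was lower in ht cells. At d2 over e18.5, 36 were higher in ko cells (median 1.15) and 30 in ht cells (median 1.10), and none lower. Over the 2013 other genes with coding sequences under 600 bases the median was 0.02 in ko and 0.01 in ht cells at e18.5 over e16.5, and 0.36 and 0.32 at d2 over e18.5.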

How the data were processed

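RNA of GFP-sorted male germ cells was extracted with the PicoPure kit and amplified with Ovation kits, per the labels' protocols. The authors deposited raw, unscaled counts per gene symbol and repeat name for each library, 1 table per age. The submitters' processing notes name STAR, featureCounts, edgeR, Bowtie and the build mm9; versions, strand use, read length and the handling of reads with several places are not given in the sources used here. Repeat names were left out of library sizes.

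Each age was fitted on all its genes by a robust quasi-likelihood model with TMM scaling (edgeR 4.0.16, R 4.3.3). Genes needed 10 counts in enough libraries and 15 in sum, p-values were Benjamini-Hochberg adjusted over all genes tested, and the threshold was 0.05. Ages and interactions used 1 fit of 6 groups on the 23853 symbols common to the tables. DESeq2 1.42.0 was an alternative, and the fits were tested on simulated data. Coding sequences came from GENCODE M21 and start windows from RefSeq; their coordinates are of GRCm38, not of the counted build. Named genes are paralogs with their partners, the P-stalk, the smallest p or largest change per comparison, the 5 highest and 5 lowest levels and up to 3 genes per further list. The members and lists were chosen with earlier results of these data known. Rps28 at d2 and Rps3a1 in ko against ht were named after their values were seen. A few of the genes this rule names are not reported here.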

Additional observations from a re-analysis of the deposited data

Results flagged for a closer look

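In 4 of 86 groups of 4 libraries tested, 1 library at d2 stood apart from the other 3 by Dixon's test, about what chance gives, since it sets apart about 1 in 20 groups. Rpl36al had 88.7 CPM in ko replicate 1, while the other ko libraries lay between 62.5 and 66.5 CPM. Rpl3l had 5.78 CPM in ht replicate 1, while the other ht libraries lay between 1.33 and 2.03 CPM. Rpl23a had 7.55 CPM in ht replicate 4, while the others lay between 4.98 and 5.3 CPM. Rpl26 had 0.0701 CPM in ht replicate 2, a single count, and 0 in the other ht libraries.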

How the results depend on the processing

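Of the alternatives for single named genes, 2160 gave the same call, 71 a weaker and 14 a stronger one and 46 moved a value, and none reversed a direction. Among the results over all members 255 alternatives gave the same answer, 23 moved a value, 14 reversed a direction and 9 were weaker. With the members' own total as library size the count of called members was 17 in place of 49 for e18.5 over e16.5 and 45 in place of 25 for d2 over e16.5 in ko cells, 9 in place of 25 and 32 in place of 20 for the same comparisons in ht cells, and 0 in place of 1 for ko against ht at d2. The last was also 0 with all ages in 1 fit. The shares of all genes called with the members' total as library size are not given here. Leaving out 1 library gave 0 to 1 called members for ko against ht at each embryonic age and 0 to 2 at d2, 16 to 24 for d2 over e16.5 in ko cells, 11 to 31 for e18.5 over e16.5 in ht cells and 0 to 1 for the interaction of d2 minus e16.5. The difference in summed share (percentage points) reversed for ko minus ht at e18.5 (−0.0048) to 0.00169 without Rpl4, to 0.0111 as a mean of log2(CPM + 1), and over single libraries left out it ran from −0.02 to 0.0187. For ko minus ht at d2 (−0.041) the mean of log2 values gave 0.0742. Counts including repeats as denominator, leaving out Rpl4 and the mean of log2 values gave 0.0227, 0.0803 and 0.602 for d2 minus e18.5 in ko cells (−0.0617), 0.0395, 0.103 and 0.539 for d2 minus e18.5 in ht cells (−0.0255), and 0.00323, 0.0275 and 0.0356 for d2 minus e16.5 in ht cells (−0.0785). For d2 minus e16.5 in ko cells (−0.18) single libraries left out gave −0.2 to −0.157, leaving out Rpl4 −0.0481 and the mean of log2 values −0.147. Leaving out Rpl4 and the mean of log2 values were added after the data were seen. The cause of these shifts was not tested.

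A block for the replicate number gave 0 called members for ko against ht at d2 in place of 1, and 49 in ko and 22 in ht cells for e18.5 over e16.5, in place of 49 and 25. Libraries of the same number correlated at −0.25 to 0.11, values too weak to settle whether the numbers pair them. At e18.5 each library correlated best with its own number, a hint from the data and not the design. Depth limits the members under 1 CPM, such as Rpl26 and Rps27.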
